A study of Mus musculus with 468 samples.

Results

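The Maf transcription factors profiled here were the small Mafs Maff, Mafg and Mafk and the large Maf c-Maf (gene symbol Maf), 4 of the 21931 genes with a symbol on the array. Members were found by the gene symbol of the platform annotation, which gave 7 of the 43681 probe sets, and the probe set with the highest mean log2 intensity over all arrays stood for its gene, with the others as a check. The genes were followed in 4 adipose depots, namely brown adipose tissue (BAT) and inguinal, epididymal and retroperitoneal white adipose tissue (IWAT, EWAT and RPWAT), after treatment of mice with fibroblast growth factor 21 (FGF21), a hormone that acts on adipocytes. Male mice aged 8 weeks received WT FGF21, the native protein, at 1.25 mg/kg given 2 times daily, or PEG30-FGF21 Q108, a pegylated form with a longer half-life, at 0.75 or 2.5 mg/kg given 2 times weekly, or vehicle (saline), for 2 d or 5 d. The models were db/db-chow (C57BLKS/J mice homozygous for the db mutation of the leptin receptor gene, on chow), WT-HFD (wild-type C57BL/6 mice on a high fat diet) and WT-chow (wild-type C57BL/6 mice on chow). Mice given the pegylated protein were sampled some 30 h after their final injection, and those given WT FGF21 or vehicle some 6 h after theirs, so the pegylated protein and vehicle differ also in this interval. The db/db mice are of another strain than the wild-type mice. Per the study's methods, they also came from another supplier and ate another chow. Strain, genotype, supplier and chow cannot be told apart. The series holds 468 arrays in 96 groups of 3 to 5 arrays, with 119 arrays of BAT, 120 of IWAT, 115 of EWAT and 114 of RPWAT.

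Maf proteins are basic leucine zipper factors that bind DNA as dimers at Maf recognition elements. The small Mafs carry no activation domain, so that they repress as homodimers and activate or repress through their partners, the cap'n'collar factors (Nfe2, Nfe2l1, Nfe2l2, also known as NRF2, and Nfe2l3) and the BACH factors, with which they share the antioxidant response element. The large Mafs have an activation domain of their own, and c-Maf is known for its roles in T cells, macrophages and lens. FGF21 binds FGF receptors with the co-receptor beta-Klotho on adipocytes and activates the ERK pathway, whose targets include the feedback inhibitors of the Sprouty and dual specificity phosphatase families.

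In the RefSeq annotation of the mouse build GRCm38.p6, Maff lies at chr15:79346621-79359078, Mafg at chr11:120625117-120634955, Mafk at chr5:139791536-139802653 and Maf at chr8:115703253-115706894. The RefSeq promoter windows used here cover 3 transcription starts of Maff and 1 each of Mafg and Mafk. The Mafg window lies inside the span of the gene, so its start is not the most upstream end of that span. The bases before a start of each small Maf gene are shown as a description, and their part in the response to FGF21 was not tested. Each run below holds the 250 bases before a start, 5′ to 3′ on the gene's strand, for Maff the second of its starts. Capitals mark matches, on either strand, to the cAMP response element TGACGTCA, the AP-1 element TGANTCA, the ETS element CCGGAA, the core of the antioxidant response element TGACNNNGC and the CArG box.
Maff, chr15:79347270-79347519, plus strand: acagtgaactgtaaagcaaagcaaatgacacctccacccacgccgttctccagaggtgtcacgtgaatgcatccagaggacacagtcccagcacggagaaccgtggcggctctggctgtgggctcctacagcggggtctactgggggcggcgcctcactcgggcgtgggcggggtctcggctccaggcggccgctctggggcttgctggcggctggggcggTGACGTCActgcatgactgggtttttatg
Mafk, chr5:139791286-139791535, plus strand: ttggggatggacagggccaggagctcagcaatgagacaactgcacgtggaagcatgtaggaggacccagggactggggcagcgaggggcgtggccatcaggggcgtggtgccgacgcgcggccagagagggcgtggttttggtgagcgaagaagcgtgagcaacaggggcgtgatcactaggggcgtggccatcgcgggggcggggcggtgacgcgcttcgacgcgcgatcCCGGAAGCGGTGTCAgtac
Mafg, chr11:120633548-120633797, minus strand: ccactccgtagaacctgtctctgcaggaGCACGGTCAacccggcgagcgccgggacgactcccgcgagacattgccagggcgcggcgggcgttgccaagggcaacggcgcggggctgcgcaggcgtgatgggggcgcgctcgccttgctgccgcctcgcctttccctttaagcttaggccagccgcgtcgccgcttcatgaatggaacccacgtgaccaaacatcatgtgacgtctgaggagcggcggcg
The Maff window holds 1 cAMP response element, whose first base lies 29 bases before the start. The windows before the other Maff starts do not hold it. Of 32851 RefSeq promoter windows of this length, 1.55% hold this element. The Mafk window holds 1 ETS element, found in 12% of windows, next to 1 antioxidant response element core, found in 10.2%, whose first bases lie 19 and 13 bases before the start. The Mafg window holds 1 antioxidant response element core, beginning 222 bases before the start. The window before the first Maff start, at chr15:79346371-79346620, holds 1 such core, and that before the third start holds none of these motifs. No window of these genes matched the AP-1 element (6.75% of all windows) or the CArG box (1.47%). Each share is for 1 motif in 1 window, while several motifs and windows were searched. A match describes letters and not binding.

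The median intensity of an array was alike within a depot and model but not between them (11.15 to 11.83 in BAT and 57.07 to 62.01 in IWAT of WT-chow mice), so that treatments were compared within a depot, model and day, and levels across these sets are given with no test. In vehicle mice, the adipocyte genes Adipoq, Fabp4 and Cidec were at or above a percentile of 99.31 among probe sets in every array. Ucp1, which marks brown adipocytes, had a median percentile of 99.97 in BAT, against 94.83 in RPWAT, 77.45 in IWAT and 48.48 in EWAT. Markers of neighbouring tissue varied between vehicle arrays, as did the lymphocyte gene Cd3e in IWAT, from 68.9 to 3393. The muscle gene Acta1 ranged from 35.4 to 8298 in BAT and from 249 to 13100 in IWAT, the adrenal gene Cyp11a1 from 16.6 to 5708 in RPWAT, and the epididymal gene Lcn8 from 8.88 to 3913 in EWAT. Over the 72 comparisons of a treatment with vehicle, calls among the 10 muscle markers were 5 higher and 1 lower of 720, and among the 5 epididymal markers 6 higher and 2 lower of 360. Among the 8 kidney and adrenal markers there were 13 higher and 8 lower of 576, and among the 8 lymphocyte markers found 3 higher and 6 lower of 576. Adipocyte markers (10 genes) were called higher in 79 and lower in 33 of 720, brown adipocyte markers (8 genes) in 77 and 7 of 576, macrophage markers (13 genes) in 24 and 29 of 936 and endothelial markers (8 genes) in 18 and 70 of 576. Over all probe sets and the same comparisons, 2.41% were called higher and 1.95% lower. The part of these cells and tissues in the results was not tested. In bulk tissue, fewer cells of a type and less RNA per cell cannot be told apart. A pair of IWAT arrays stood apart from their depot and model, with a median correlation with the other arrays of 0.882 (db/db-chow, vehicle, 2 d, replicate 2) and 0.898 (WT-HFD, WT FGF21, 5 d, replicate 3), and the IWAT results of Maff are given with and without them.

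Maff rose with FGF21 in every depot. Its log2 change against vehicle was above 0 in all 72 comparisons and passed the test (limma, adjusted p under 0.05) as higher in 51 and as lower in 0, where 2.41% of probe sets passed as higher over all comparisons. The 3 treatments of a depot, model and day share their vehicle group, and depots can come from 1 animal. The 72 comparisons are therefore not independent repeats. The count of calls also depends on the test. The methods' ANOVA, run on the arrays of each comparison alone, called Maff higher in 18 of 72 after adjustment over all probe sets (8 in BAT, 1 in IWAT, 5 in EWAT and 4 in RPWAT, of 18 each). At an unadjusted p under 0.05 with a fold of 1.2, it called Maff higher in 64 of 72. The share of all probe sets that this ANOVA calls was not computed, so its counts have no background beside them. By limma, 8 of the 43681 probe sets, Maff included, were called higher in at least as many comparisons as Maff, and 12 were above 0 in all 72. The median change was 1.22 on the log2 scale, with a range of 0.11 to 2.29. All treated arrays lay above all vehicle arrays in 55 of 72 comparisons, against 2.7% of probe sets and comparisons. By depot, Maff was called higher in 9 of 18 comparisons in BAT (4.71% of probe sets), 11 of 18 in IWAT (2.24%), 15 of 18 in EWAT (1.2%) and 16 of 18 in RPWAT (1.49%). Without the arrays that stand apart, it was called in 13 of 18 in IWAT, and the share of probe sets called without them was not computed. In the N-way model, which joins models and days, the main effect of FGF21 was 0.96 (SE 0.11) in BAT, 1.28 (SE 0.11) in IWAT, 1.24 (SE 0.06) in EWAT and 1.19 (SE 0.07) in RPWAT, with adjusted p-values of 2.28e-12, 1.11e-18, 6.5e-34 and 5.38e-30 from limma. At the unadjusted p under 0.001 used for this effect, 8.54%, 4.74%, 3.57% and 5.17% of probe sets were higher in these depots.

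**Figure D1:**
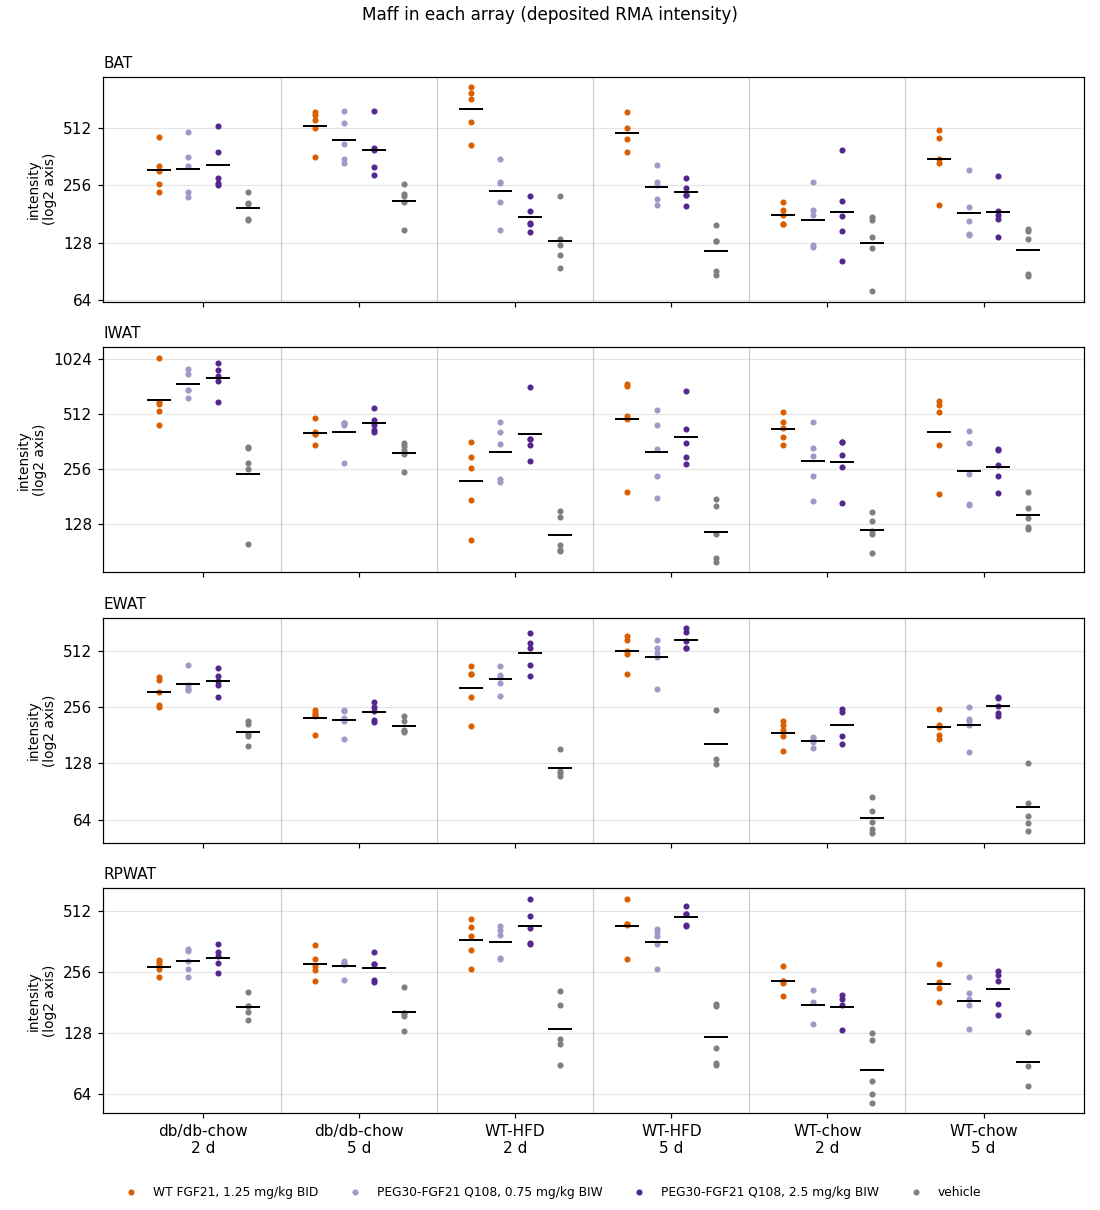
Maff intensity (deposited value, log2 axis) in each of the 468 arrays, by depot (panels) and by model and day (x axis). Points are arrays, coloured by treatment, and black lines are geometric means. In RPWAT all treated arrays lie above the vehicle arrays of their model and day, and in EWAT of db/db-chow mice at 5 d the 4 groups overlap.

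In EWAT, Maff rose in both wild-type models with each treatment and at both days. In WT-HFD mice at 2 d, the Maff intensities were 423, 383, 384, 203 and 288 with WT FGF21, 381, 295, 369, 424 and 346 with PEG30-FGF21 Q108 at 0.75 mg/kg and 531, 377, 639, 428 and 562 at 2.5 mg/kg, against 109, 114, 152 and 116 with vehicle. No treated array reached down to the highest vehicle array. The log2 changes were 1.42 (SE 0.17), 1.57 (SE 0.17) and 2.04 (SE 0.17), with adjusted p-values of 9.91e-09, 4.29e-10 and 6.02e-16, where 0.936%, 0.321% and 0.808% of probe sets were called higher. The last is the highest change of Maff in EWAT, at 4.1-fold. In WT-chow mice at 5 d, Maff had 182, 204, 173, 250.3 and 201 with WT FGF21, 148, 256, 205, 215 and 222 with the 0.75 mg/kg dose and 288, 229, 259, 291 and 239 with the 2.5 mg/kg dose, against 61.5, 78.7, 67, 55.6 and 128 with vehicle. The groups again did not overlap, and the changes were 1.43 (SE 0.16), 1.46 (SE 0.16) and 1.80 (SE 0.16), beside 1.97%, 1.08% and 2.32% of probe sets called higher. All 12 comparisons of the wild-type models in EWAT, 6 in WT-HFD and 6 in WT-chow mice, were called. The vehicle group of WT-HFD mice at 5 d has 3 arrays in EWAT, 1 of which, at 246, was higher than the others at 127 and 135.

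In EWAT of db/db-chow mice, Maff rose at 2 d, and its changes at 5 d were not called. At 2 d, Maff had 255, 356, 309, 372 and 264 with WT FGF21, 430.2, 314, 318, 322 and 337 with PEG30-FGF21 Q108 at 0.75 mg/kg and 291, 417, 336, 377 and 353 at 2.5 mg/kg, against 184, 159, 208, 216 and 179 with vehicle. These changes of 0.71 (SE 0.16), 0.86 (SE 0.16) and 0.91 (SE 0.16) were called (adjusted p 0.0342, 0.00398 and 0.000775), where 0.0962%, 0.0366% and 0.121% of probe sets were called higher. At 5 d, the intensities were 239.5, 247, 231, 230.3 and 181 with WT FGF21, 215, 246, 245, 172 and 224 with the 0.75 mg/kg dose and 257, 212, 218, 245 and 274 with the 2.5 mg/kg dose, against 188, 192, 193, 216 and 229 with vehicle. Treated and vehicle arrays overlapped in each of these comparisons, and the changes of 0.15 (SE 0.16), 0.11 (SE 0.16) and 0.25 (SE 0.16) were not called, where 0.353%, 0.332% and 0.73% of probe sets were. The response in db/db-chow minus that in WT-chow mice at 5 d was -1.28 (SE 0.23) for WT FGF21, -1.35 (SE 0.23) for the 0.75 mg/kg dose and -1.55 (SE 0.23) for the 2.5 mg/kg dose, all called in limma (adjusted p 0.000414, 0.000207 and 4.13e-06). Of all such model differences, 0.413% of probe sets were called lower and 0.376% higher. Of 13 listed feedback inhibitors and ERK targets of FGF receptor signalling, 1, 2 and 3 were called higher in these db/db-chow mice at 5 d with WT FGF21 and the low and high dose, against 3, 4 and 4 in WT-chow mice. The difference between days itself did not pass the test for Maff in any of 36 comparisons, with differences (5 d minus 2 d) from -1.25 to 1.10 and SEs of 0.23 to 0.42. The smallest adjusted p among them was 0.103, 8 of 36 had an unadjusted p under 0.05, and 0.271% of probe sets were called higher and 0.243% lower at 5 d.

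In RPWAT, all treated arrays lay above all vehicle arrays in each of 18 comparisons, against 2.71% of probe sets and comparisons in this depot. The vehicle group of WT-chow mice at 5 d and their 0.75 mg/kg group at 2 d had 3 arrays each. With so few arrays, a lack of overlap comes more easily. WT-HFD mice at 5 d had Maff intensities of 592, 298, 444, 436 and 446 with WT FGF21, 418, 388, 265, 354 and 406 with the 0.75 mg/kg dose and 497, 436, 497, 546 and 441 with the 2.5 mg/kg dose, against 178, 89.7, 175, 108.4 and 91.8 with vehicle. The changes of 1.82 (SE 0.18), 1.56 (SE 0.18) and 1.97 (SE 0.18) included the highest of this depot, and 1.26%, 0.769% and 2.78% of probe sets were called higher there. In WT-chow mice, the 6 changes lay between 1 and 1.46 and all were called. In db/db-chow mice they lay between 0.66 and 0.81, and 4 of 6 were called. The remaining pair, at 2 d, had adjusted p-values of 0.126 with WT FGF21 and 0.0586 with the 0.75 mg/kg dose, although no treated array overlapped a vehicle array. The model difference was not called in RPWAT in 12 comparisons, and ranged from -0.80 to 0.79 (SE 0.26 to 0.29).

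In IWAT, Maff rose in all models, but 1 array that stands apart bears on several values. In db/db-chow mice at 2 d, the intensities were 579.7, 1046, 601, 530.4 and 447 with WT FGF21, 854, 904, 699, 632 and 692 with PEG30-FGF21 Q108 at 0.75 mg/kg and 595, 827, 974, 781 and 898 at 2.5 mg/kg, against 276, 99.8, 337, 257 and 334 with vehicle. The vehicle array at 99.8 is 1 of those that stand apart. With it, the changes were 1.35 (SE 0.30), 1.64 (SE 0.30) and 1.74 (SE 0.30), and without the arrays that stand apart they were 1.03, 1.32 and 1.43. In these comparisons, 12.8%, 9.21% and 12.3% of all probe sets were called higher with all arrays. The changes with the pegylated protein stayed called without these arrays (limma, adjusted p 0.00482 and 0.00105), and that with WT FGF21 did not (adjusted p 0.0557). At 5 d in db/db-chow mice the changes were 0.37, 0.39 and 0.55 with an SE of 0.30, and none was called. In WT-HFD mice at 5 d, Maff had 735, 480.1, 192, 754 and 503 with WT FGF21, where the 192 is the other array that stands apart, 329, 446, 179, 234 and 539 with the low dose and 428, 683, 275, 356 and 298 with the high dose, against 161, 84, 175, 113 and 79.6 with vehicle. The change with WT FGF21 was 2.05 (SE 0.30) with that array and 2.38 without it, and 2.25%, 0.153% and 0.982% of probe sets were called higher in these comparisons. In WT-chow mice at 5 d, the changes of 0.79 and 0.88 with the low and high dose of the pegylated protein were not called (adjusted p 0.346 and 0.16), while that with WT FGF21, 1.51, was. Without the arrays that stand apart, the change at the high dose was called (adjusted p 0.0494). The same held in WT-HFD mice at 2 d with WT FGF21 (change 0.97, adjusted p 0.135 with and 0.0351 without these arrays) and in WT-chow mice at 2 d with the low dose (change 1.26, adjusted p 0.0514 and 0.0071).

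BAT held both the largest of the 72 changes and several that were not called. In WT-HFD mice at 2 d, Maff had 726, 834, 779, 416 and 548 with WT FGF21, against 94, 134, 111, 225 and 124 with vehicle. The lowest treated array lay above the highest vehicle array, and the change of 2.29 (SE 0.25), or 4.88-fold, was that largest one (adjusted p 1.84e-11, with 4.95% of probe sets called higher). In the same mice the pegylated protein gave 209, 148, 265, 351 and 261 at 0.75 mg/kg and 146, 159, 188, 224 and 162 at 2.5 mg/kg, which overlapped the vehicle arrays, and changes of 0.86 (SE 0.25) and 0.41 (SE 0.25) that were not called. In WT-chow mice at 2 d, Maff had 161, 189, 179, 161 and 209.7 with WT FGF21, against 168, 71, 174, 137 and 120 with vehicle, groups that overlapped. The response to WT FGF21 at 2 d was larger in WT-HFD than in WT-chow mice, with a difference of 1.80 (SE 0.35) and an adjusted p of 0.00134. Over the 6 comparisons of each treatment in BAT, the median change was 1.44 with WT FGF21 (4 called), 0.77 with the 0.75 mg/kg dose (2 called) and 0.71 with the 2.5 mg/kg dose (3 called). Since the hours between last dose and sampling differ between WT FGF21 and the pegylated protein, these values are given side by side with no test. Immediate early and stress genes, which follow recent stimuli and handling of tissue, moved in BAT as well, with 29 calls higher and 99 lower of 288 over the list of 16 genes, against 4.71% and 5.11% of all probe sets. In WT-HFD mice at 2 d, 8 of the 16 were called higher and 1 lower with WT FGF21, against 0 higher and 5 lower at 2.5 mg/kg. Of all probe sets, 4.95% were called higher and 9.1% lower there with WT FGF21, and 2% and 3.98% at 2.5 mg/kg. The part of these 16 genes in the change of Maff was not tested.

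**Figure D2:**
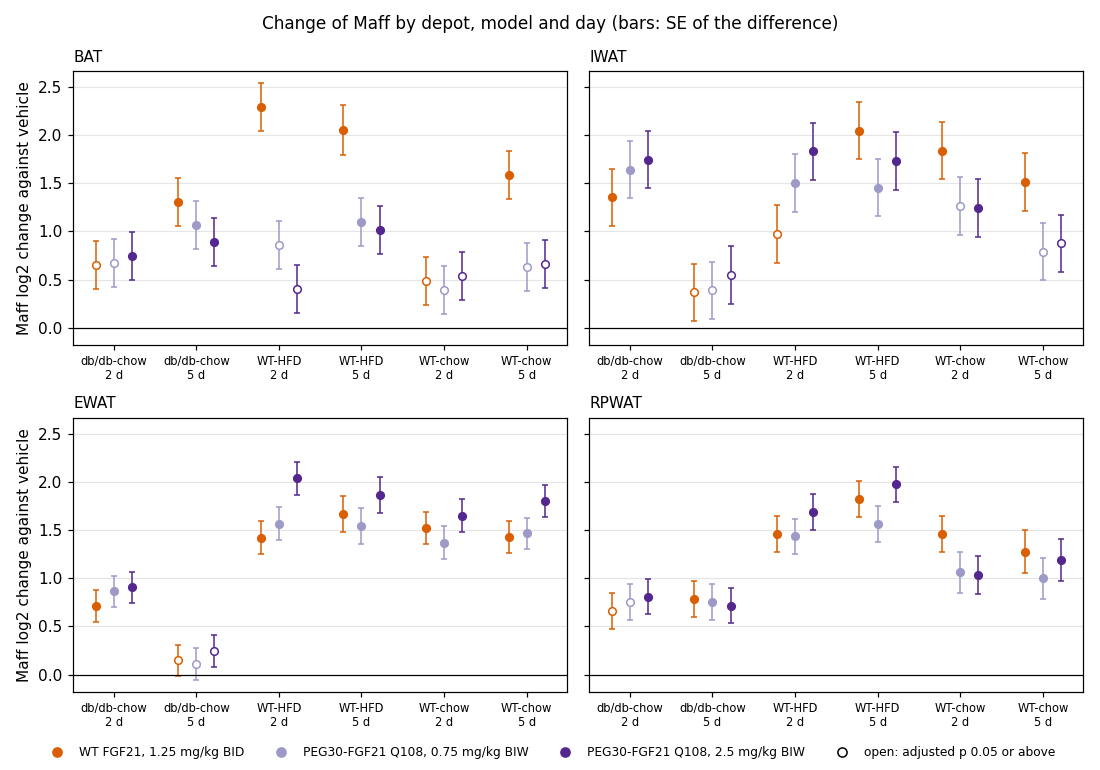
Log2 change of Maff against vehicle of the same depot, model and day (y axis), by model and day (x axis) and depot (panels). Points are the 3 treatments, bars the SE of the difference, and open points did not pass adjusted p under 0.05. In EWAT the 3 changes of db/db-chow mice at 5 d are between 0.11 and 0.25, against 1.43 to 1.80 in WT-chow mice at 5 d.

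The response of Maff to PEG30-FGF21 Q108 did not differ detectably between doses. The change at 2.5 minus that at 0.75 mg/kg, taken at the same hour after dosing, passed the test in 0 of 24 comparisons (limma, smallest adjusted p 0.478), with 3 of 24 at an unadjusted p under 0.05. The differences ranged from -0.45 to 0.47 with SEs of 0.16 to 0.30, and 18 of 24 were above 0, including all 6 in EWAT, where they ran from 0.04 to 0.47. Over all probe sets and these comparisons, 0.0248% were higher and 0.0544% lower at the high dose. Set against the white depots in 1 fit, the BAT response of Maff was called higher in 2 and lower in 6 of 36 comparisons, run for WT FGF21 and the 2.5 mg/kg dose, where 1.13% and 1.95% of probe sets were called. With the 2.5 mg/kg dose in WT-HFD mice at 2 d, it was lower than in IWAT by a log2 difference of -1.42 (SE 0.33), than in EWAT by -1.63 (SE 0.34) and than in RPWAT by -1.28 (SE 0.33) (adjusted p 0.007, 0.00103 and 0.0143). With WT FGF21 in the same mice, it was higher than in IWAT by 1.31 (SE 0.33), with an adjusted p of 0.0188. With the arrays of all depots on 1 quantile distribution, 0 of 36 were called higher and 8 lower, and without replicate 5 the counts were 0 and 2.

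**Figure D3:**
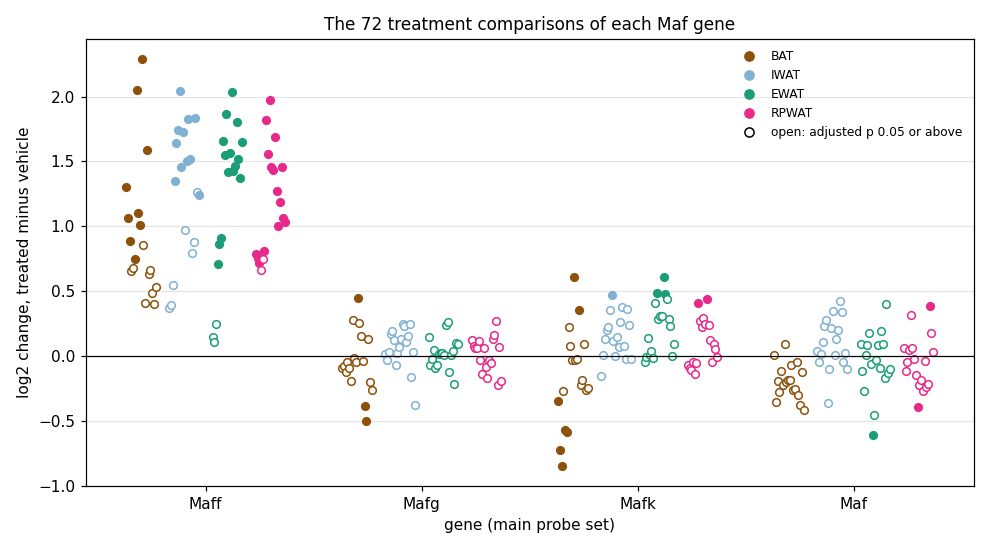
Log2 change against vehicle (y axis) in the 72 comparisons of Maff, Mafg, Mafk and Maf (x axis), coloured by depot, with filled points past adjusted p 0.05. All points of Maff are above 0, while those of Mafg, Mafk and Maf lie on both sides of 0.

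Mafk, the small Maf that pairs with NFE2 in blood cells, was called in both directions. It was called higher in 8 and lower in 5 of 72 comparisons, where 2.41% and 1.95% of probe sets were called, and its changes ranged from -0.85 to 0.61. The methods' ANOVA, adjusted over all probe sets, called 0 higher and 4 lower. All 5 falls were in BAT of db/db-chow mice. At 5 d, Mafk had 718, 563, 490.5, 578 and 442 with WT FGF21, 422, 459, 410.3, 393 and 438 with the 0.75 mg/kg dose and 403, 404, 373, 377 and 394 with the 2.5 mg/kg dose, against 645, 734, 639, 702 and 800.2 with vehicle. Every array of the pegylated protein was below the vehicle arrays, while 1 array with WT FGF21 lay among them. The changes were -0.35 (SE 0.10), -0.73 (SE 0.10) and -0.85 (SE 0.10), with adjusted p-values of 0.0129, 1.34e-08 and 9.17e-11, where 5.98%, 11.1% and 9.63% of probe sets were called lower. At 2 d, the intensities were 438, 525, 584, 456 and 477 with WT FGF21, 364, 426, 366, 383 and 475 with the low dose and 371, 413, 427, 366 and 409 with the high dose, against 632, 581, 591, 572 and 599 with vehicle. The fall of -0.57 and -0.58 with the pegylated protein was called, as were 2.44% and 4.06% of probe sets, and that of -0.27 with WT FGF21 was not (adjusted p 0.11). In the same BAT at 5 d, 3, 12 and 13 of 16 immediate early and stress genes were called lower with WT FGF21 and the low and high dose, and their summed intensity was 11880 to 14930, 5857 to 6885 and 4690 to 6307, against 14420 to 20900 with vehicle. Macrophage markers (13 genes) were called lower in 0, 10 and 2 cases and endothelial markers (8 genes) in 6, 4 and 5. Their part in the fall of Mafk was not tested.

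The fall of Mafk differed from the response of WT-chow mice at 5 d and, at the high dose, from that of the white depots. In BAT at 5 d, the response in db/db-chow minus that in WT-chow mice was -0.70 (SE 0.14) with WT FGF21, -0.50 (SE 0.14) with the low dose and -0.66 (SE 0.14) with the high dose (adjusted p 0.000668, 0.0155 and 0.000803). At 2 d these differences, -0.36, -0.30 and -0.34, were not called (limma, adjusted p 0.339 to 0.439). The 5 d difference with WT FGF21 includes a called rise of 0.35 in WT-chow mice, where 4.55% of probe sets were called higher. With the high dose in db/db-chow mice at 5 d, BAT minus IWAT was -0.97 (SE 0.18), BAT minus EWAT -0.98 (SE 0.18) and BAT minus RPWAT -0.74 (SE 0.18), all called. At 2 d, BAT minus IWAT was called with the high dose (-0.94, SE 0.18), and the differences from EWAT (-0.56) and RPWAT (-0.53) were not. The IWAT change behind the first value was 0.35 with all arrays and 0.10 without the arrays that stand apart. With WT FGF21 in db/db-chow mice, none of the 6 differences from a white depot was called (-0.47 to -0.19). The 0.75 mg/kg dose was not tested between depots. In WT-HFD mice, Mafk was called higher in 6 of 24 comparisons and its change was above 0 in 20 of them, where 3.74% of probe sets in BAT, 0.637% in IWAT, 1.4% in EWAT and 1.19% in RPWAT were called higher. There, BAT at 2 d with WT FGF21 changed by 0.61 (SE 0.10), with arrays that overlapped vehicle, and EWAT at 2 d with the high dose by 0.61 (SE 0.14), with none that did. The call in IWAT at 5 d with WT FGF21 did not hold without the arrays that stand apart. Its adjusted p (limma) was 0.0486 with them and 0.103 without. The N-way effect of FGF21 on Mafk passed in EWAT, at 0.22 (SE 0.05, p 5.86e-06), where 3.57% of probe sets were higher. It did not pass at p under 0.001 in BAT (-0.17, SE 0.05, p 0.00132), IWAT (0.16, SE 0.05, p 0.00514) or RPWAT (0.10, SE 0.04, p 0.00619).

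**Figure D4:**
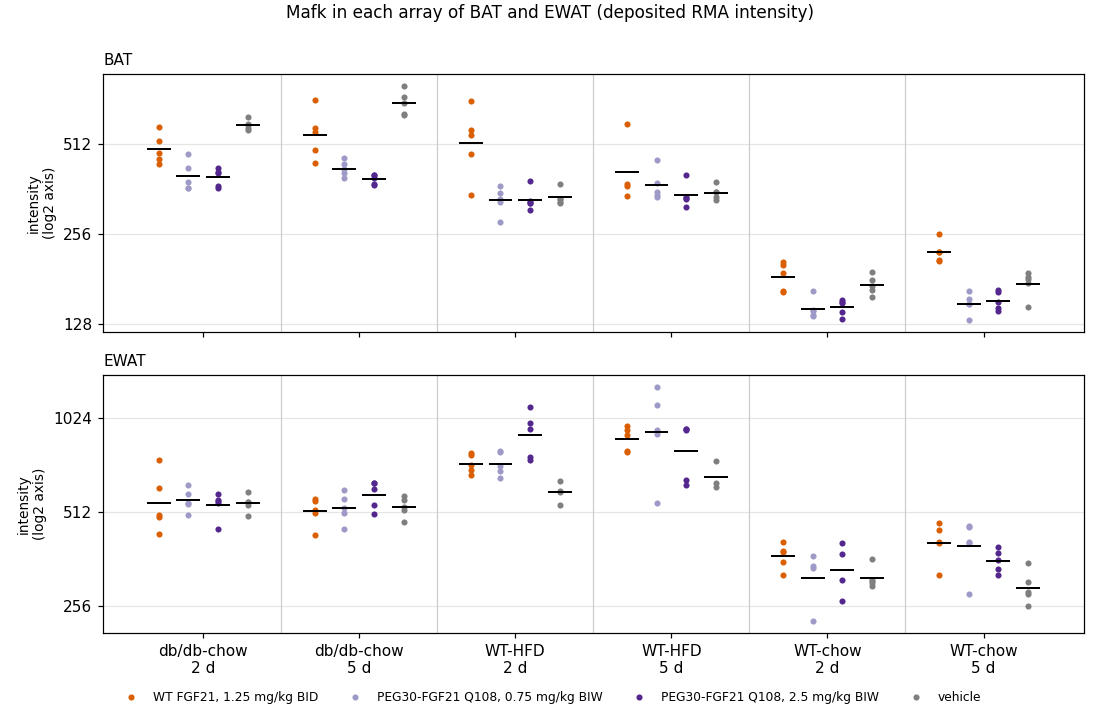
Mafk intensity (deposited value, log2 axis) in each array of BAT and EWAT, by model and day (x axis) and treatment (colour), with geometric means as black lines. In BAT of db/db-chow mice at 5 d, arrays of the pegylated protein lie between 373 and 459, against 639 to 800.2 with vehicle.

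Mafg, which in mice serves platelet formation together with NFE2, was called in 3 comparisons. It was called higher in 1 and lower in 2 of 72 comparisons, near the 2.41% and 1.95% of all probe sets, with changes from -0.50 to 0.45, and the N-way effect lay between -0.05 and 0.06 (SE 0.04 in each depot) with none called. The 3 calls were in BAT, where 4.71% of probe sets were called higher and 5.11% lower. The methods' ANOVA, adjusted over all probe sets, called 0 higher and 2 lower. In WT-chow mice at 5 d, Mafg had 458, 443, 388, 466 and 481 with the 0.75 mg/kg dose and 400.3, 404, 401, 422 and 425 with the 2.5 mg/kg dose, against 560, 541, 639.6, 598 and 572 with vehicle. Every treated array was below every vehicle array, and the changes were -0.38 (SE 0.10) and -0.50 (SE 0.10) (adjusted p 0.00387 and 6.24e-05, where 5.98% and 7.66% of probe sets were called lower). With WT FGF21 in the same mice the values were 565, 523, 584, 689 and 489. The rise was in WT-HFD mice at 2 d with WT FGF21, where Mafg had 1761, 1917, 2009, 1404 and 1501, against 1412, 1001, 1312, 1371 and 1191 with vehicle. These groups overlapped by 1 array, and the change was 0.45 (SE 0.10) with an adjusted p of 0.000614. Between depots, the response of Mafg to the high dose in WT-chow mice at 5 d was lower in BAT than in IWAT, EWAT and RPWAT, by -0.75 (SE 0.15), -0.54 (SE 0.15) and -0.77 (SE 0.17). The other Mafg probe set was called higher in 2 and lower in 2 of 72, with a range of -0.43 to 0.51.

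Maf, the large Maf, was called higher in 1 and lower in 2 of 72 comparisons, near the 2.41% and 1.95% of all probe sets, with changes from -0.61 to 0.42. None of these 3 calls held in the methods' ANOVA after adjustment. In EWAT of WT-HFD mice at 5 d, it had 1145, 1252, 1201, 1068 and 1260 with the 0.75 mg/kg dose, against 1456, 2016 and 2005 in the 3 vehicle arrays. All treated arrays were lower, and the change was -0.61 (SE 0.17) with an adjusted p of 0.0174, where 1.26% of probe sets were called lower. In RPWAT of WT-HFD mice at 5 d, Maf had 998, 928, 1098, 1227 and 1242 with the 2.5 mg/kg dose, against 1460, 1193, 1244, 1658 and 1675 with vehicle. These groups overlapped, with a change of -0.39 (SE 0.12) and an adjusted p of 0.0379, where 1.9% of probe sets were called lower. None of 13 macrophage markers was called in either comparison, and their summed intensity was 25050 to 33690 with treatment and 28260 to 34780 with vehicle in EWAT, and 18420 to 35010 with treatment and 20320 to 35260 with vehicle in RPWAT. In RPWAT of WT-chow mice at 2 d, Maf had 973, 948, 1107, 956 and 948 with WT FGF21, against 824, 822, 674, 766 and 699 with vehicle. All treated arrays were higher, by 0.38 (SE 0.12) with an adjusted p of 0.0469, where 2.45% of probe sets were called higher. There, 8 of 13 macrophage markers were called higher, with a summed intensity of 21510 to 24180 with WT FGF21 and 14890 to 22450 with vehicle, and their part in the rise of Maf was not tested. The dimmest of the 3 Maf probe sets gave changes of 0.13, 0.01 and -0.18 in these comparisons, opposite in sign, with none called. The N-way effect on Maf was not called in any depot, and was -0.20 (SE 0.07, p 0.00576) in BAT. A second probe set gave -0.40 (SE 0.09, p 3.21e-05) there, where 10.9% of probe sets were lower. For the same effect in BAT, 7 of 13 macrophage markers were lower and 0 higher, with a median of -0.25, and their part in the values of Maf was not tested. In IWAT, Maf was called in 0 of 18 comparisons with all arrays and higher in 3 of 18 without the arrays that stand apart. With all arrays, 2.24% of probe sets were called higher in IWAT and 1.08% lower, and the share without those arrays was not computed. The other large Mafs found on the array, Mafa and Nrl, were called in 0 of 144 by limma's adjusted p (at an unadjusted p under 0.05, 3 were higher and 5 lower), against 2.41% higher and 1.95% lower over all probe sets.

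In vehicle mice, the order of levels over depots and models is a description, since the arrays of these sets were not on 1 level. The mean log2 intensity of Maff ran from 8.10 (SD 0.55, n = 10) in IWAT of db/db-chow mice to 6.12 (SD 0.37, n = 10) in EWAT of WT-chow mice. On this scale the 4 sets of db/db-chow mice came first for Maff, and neighbouring sets in this order differed by at most 1.01 times the larger SD. The order was another by percentile among the probe sets of the array, where BAT of db/db-chow mice (80.6, SD 1.91) was followed by BAT of WT-chow mice (79.3, SD 3.26), then by EWAT (77.5), RPWAT (75.6) and IWAT (73.3) of db/db-chow mice, with IWAT of WT-HFD mice lowest (62.1, SD 4.07). For Maf the order ran from 11.15 (SD 0.35) in IWAT of WT-chow mice to 7.26 (SD 0.46) in BAT of WT-chow mice, and the 3 BAT sets were lowest. Mafg ran from 11.08 (SD 0.38) in IWAT of db/db-chow mice to 9.13 (SD 0.12) in BAT of WT-chow mice, and Mafk from 10.17 (SD 0.41) to 7.44 (SD 0.12) in the same sets. By percentile, Mafk was highest in BAT of db/db-chow mice (91.7, SD 0.80) and lowest in BAT of WT-HFD mice (81.8, SD 0.56), and Mafg lay between 92.8 and 94.8 in all sets.

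The genes whose levels most resembled each member were found by Pearson correlation over the 468 arrays, after the mean of each depot, model and day was removed, among 21931 genes. These arrays share their treatments, so the values describe likeness only. Maff was most like Tnfrsf12a (r = 0.743), a receptor of the TNF family, Sdc4 (0.73), a heparan sulphate proteoglycan, Pvr (0.729), a cell adhesion receptor, Spry4 (0.725), a feedback inhibitor of ERK signalling, and Atp6v0a1 (0.68), a subunit of the vacuolar proton pump. The likeness to Spry4 was 0.344 in BAT, 0.831 in IWAT, 0.849 in EWAT and 0.792 in RPWAT. Spry4 was called higher in 62 of 72 comparisons, Sdc4 in 43, Atp6v0a1 in 31, Pvr in 29 and Tnfrsf12a in 26, against 2.41% of all probe sets, and Tnfrsf12a was called lower in 1. These genes were chosen by likeness to Maff over treated and vehicle arrays, so frequent calls are built into the choice. Mafk was most like Thbs1 (0.688), Sertad1 (0.63), Tinagl (0.621), Ndel1 (0.613) and Myd116 (0.608), the last a stress gene that encodes a phosphatase subunit. Mafg was most like Camta2 (0.56), D130059P03Rik (0.55), Ptpn23 (0.532), Pkd1 (0.529) and Spen (0.518). Maf was most like the macrophage genes Mrc1 (0.735), Emr1 (0.703) and F13a1 (0.7), followed by Dse (0.69) and P2ry12 (0.674). The likeness of Maf to Mrc1 was 0.664 in BAT, 0.875 in IWAT, 0.735 in EWAT and 0.607 in RPWAT. The IWAT arrays that stand apart are included in these values. Among the members, Maff correlated with Mafk at 0.49, with Mafg at 0.139 and with Maf at -0.01.

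The partners of the small Mafs were called in both directions, most often in BAT. Over the 72 comparisons, the 7 listed genes were called higher in 21 and lower in 19 of 504, 4.17% and 3.77%, against 2.41% and 1.95% of all probe sets. In BAT the counts were 13 higher and 17 lower of 126, where 4.71% and 5.11% of probe sets were called. Nfe2l3, a cap'n'collar factor, was called lower in 9 of 18 comparisons in BAT, with a median change of -0.84, and in 0 of 18 in each white depot (1.08% of probe sets in IWAT, 0.793% in EWAT and 0.835% in RPWAT). Bach1, a repressor of haem and antioxidant genes, was called higher in 7 and lower in 6 of 72. Nfe2l2 was called higher in 6 and lower in 2, and Keap1, which marks the NRF2 protein for degradation, higher in 4 and lower in 0.

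Genes with antioxidant response elements, the targets that small Mafs share with NRF2, moved in both directions. Over 26 of 27 listed genes found, 147 of 1872 calls were higher and 88 lower (7.85% and 4.7%, median change -0.01, against 2.41% and 1.95% of all probe sets), of which BAT held 116 and 37 of 468 (24.8% and 7.91%, against 4.71% and 5.11% of all probe sets there). In EWAT, 3 of 468 were higher and 25 lower (0.641% and 5.34%), against 1.2% and 0.793% of all probe sets. The relation of these genes to the change of Maff was not tested in any depot. Gsta3, a glutathione transferase, was called lower in 25 of 72 with a median change of -0.69, and Srxn1, which reduces oxidised peroxiredoxins, higher in 16 of 72 with a median of 0.09. Tkt, of the pentose phosphate pathway, was called higher in 9 and lower in 11, and Abcc1, an export pump for conjugates, higher in 3 and lower in 13. The 13 feedback inhibitors and ERK targets of FGF receptor signalling were called higher in 250 and lower in 12 of 936 (26.7% and 1.28%, median change 0.11), against the same 2.41% and 1.95%. Dusp4, a phosphatase that acts on MAP kinases, was called higher in 67 of 72 with a median change of 1.49, Spry4 in 62 with 1.17, Dusp6 in 43 with 0.45 and the transcription factor Etv5 in 31 with 0.32. The immediate early and stress genes were called higher in 96 and lower in 146 of 1152 (8.33% and 12.7%, against 2.41% and 1.95%), with Jun lower in 21, Hspa1b lower in 21 and Ier2 higher in 18 of 72.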

How the data were processed

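RNA of BAT, IWAT, EWAT and RPWAT was hybridised to 468 custom 1-colour arrays with 43681 probe sets, of which 30342 carry 1 gene symbol and 13339 none. The authors processed the arrays with the robust multi-array average (RMA) in Rosetta Resolver, and deposited linear intensity values (1.653 to 22400). The version of either is not given in the sources used here. The number of arrays limits the precision. Log2 of the deposited intensity was computed here with no further scaling. The study's filter on present calls was not applied.

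Groups followed the GEO labels. Group means were fitted per depot with limma 3.58.1 in R 4.3.3 (eBayes with a trend, Benjamini-Hochberg adjustment over all probe sets), and a call is an adjusted p under 0.05. The main effect of FGF21 came from an N-way model and was called at an unadjusted p under 0.001. Contrasts tested differences of dose, day, model and depot. Labels do not tie together depots that came from 1 animal, so BAT and white depots were treated as independent. Per the study's methods, treatment groups had 5 animals, and p-values measure the spread between arrays. The fits were tested on simulated data. Alternatives covered normalization, a filter on dim probe sets, array weights, the replicate number as a block, the methods' ANOVA, other probe sets and left-out arrays.

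The members and lists were chosen with earlier results of these data known. The text names the 4 members, up to 4 genes of each of 13 lists with the most calls (134 of 138 listed genes were found) and the 5 genes most like each member. Promoters are from RefSeq, GRCm38.p6. The Maf promoter is not used here.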

Additional observations from a re-analysis of the deposited data

Results flagged for a closer look

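In groups of 4 or 5 arrays, 28 of 372 groups of the 4 genes held an array far from the others by Dixon's test, where chance gives about 1 in 20. Those in a called comparison were Maff in EWAT of db/db-chow mice at 2 d with the 0.75 mg/kg dose (replicate 1 at 430.2, the others 314.2 to 336.6), Maff in IWAT of db/db-chow mice at 2 d with vehicle (replicate 2 at 99.83, the others 257.1 to 337) and Maff in RPWAT of db/db-chow mice at 5 d with the 0.75 mg/kg dose (replicate 2 at 235.8, the others 280.5 to 292.9). Mafk in BAT of WT-HFD mice at 2 d with vehicle (replicate 4 at 375.1, the others 325.9 to 335.7) and Maf in RPWAT of WT-chow mice at 2 d with WT FGF21 (replicate 3 at 1107, the others 947.7 to 972.9) were the others.

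Differences between models that passed the test, as the log2 response in the named model minus that in WT-chow mice, were as follows. Maff differed in EWAT of db/db-chow mice at 5 d by -1.281 with WT FGF21, -1.355 with the 0.75 mg/kg dose and -1.555 with the 2.5 mg/kg dose, and in BAT of WT-HFD mice at 2 d by 1.802 with WT FGF21. Mafk differed in BAT of db/db-chow mice at 5 d by -0.7016 with WT FGF21, -0.5047 with the low dose and -0.658 with the high dose, and in BAT of WT-HFD mice at 2 d by 0.5161 with WT FGF21. Maf differed in RPWAT of WT-HFD mice at 2 d by -0.6078 with WT FGF21.

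Differences between depots that passed the test are the log2 response in BAT minus that in the white depot. For Maff, BAT minus IWAT was -0.9951 in db/db-chow mice at 2 d with the 2.5 mg/kg dose, 1.315 in WT-HFD mice at 2 d with WT FGF21, -1.423 in WT-HFD mice at 2 d with the 2.5 mg/kg dose and -1.352 in WT-chow mice at 2 d with WT FGF21. The first was -0.68 and not called (limma, adjusted p 0.368) without the arrays that stand apart. BAT minus EWAT was 1.158 in db/db-chow mice at 5 d with WT FGF21, -1.628 in WT-HFD mice at 2 d with the 2.5 mg/kg dose and -1.135 in WT-chow mice at 5 d with that dose, and BAT minus RPWAT was -1.281 in WT-HFD mice at 2 d with it. For Mafg, the values in WT-chow mice at 5 d with the 2.5 mg/kg dose were -0.746 against IWAT, -0.5399 against EWAT and -0.772 against RPWAT, and that in WT-HFD mice at 2 d with WT FGF21 was 0.6205 against RPWAT. For Mafk with the 2.5 mg/kg dose, the values in db/db-chow mice at 5 d were -0.9738 against IWAT, -0.9811 against EWAT and -0.7407 against RPWAT, that at 2 d was -0.935 against IWAT, and that in WT-HFD mice at 2 d was -0.6329 against EWAT. The IWAT change behind the value of -0.935 was 0.3506 with all arrays and 0.1018 without those that stand apart.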

How the results depend on the processing

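The number of arrays, 3 to 5 a group, limits the precision. The N-way effect on Maff kept its sign and its call under every alternative run. The BAT effect on Maf was -0.4033 (p 3.209e-05) with 1 other probe set, and with the dimmest Maf probe set it was 0.03171 in BAT, 0.03012 in EWAT and -0.03047 in IWAT, opposite to the values reported. The first of these gave -0.02959 in IWAT. The effect on Mafg was 0.0153 in BAT with its other probe set and -0.006503 in RPWAT after quantile normalization, and that on Mafk in BAT was -0.2023 (p 6.389e-05) with array weights. The dimmest Maf probe set reversed the 3 calls of Maf (0.1261, 0.009931 and -0.1814). The cause was not tested.

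The methods' ANOVA called Maff in 18, Mafk in 4 and Maf in 1 of 72 comparisons after adjustment over the probe sets. At an unadjusted p under 0.05 and a fold of 1.2 it called Mafk in 22, Maf in 11 and Mafg in 7. The share of all probe sets that this ANOVA calls was not computed, so its counts have no background beside them. Maf, called in 3 comparisons, was called in 8 with array weights, 6 without the arrays that stand apart and 5 with another probe set, which kept 1 of the 3. Its model difference, called in 1, was called in 2 with array weights, in 2 without dim probe sets and in 0 with the replicate block, its BAT difference in 2 without the arrays that stand apart, and the day difference of Maf and of Maff in 1 each with array weights. When each replicate number was left out in turn, Maff was called in 44 to 47 (51 with all), Mafk in 9 to 12, Mafg in 2 to 3 and Maf in 0 to 2 comparisons. The difference of BAT from white depots was called in 2 to 7 for Maff (8 with all, 2 without replicate 5 and 3 without replicate 1, 3 or 4), 3 to 4 for Mafg, 4 to 5 for Mafk and 0 for Maf. The model difference was called in 3 to 5 for Maff, 2 to 4 for Mafk and 0 to 1 for Maf, and the day difference in 0 to 1 for Maff and for Mafg. The N-way effect on Maff then ran from 0.8988 to 1.02 in BAT, 1.145 to 1.364 in IWAT, 1.215 to 1.257 in EWAT and 1.124 to 1.239 in RPWAT, that on Maf in BAT from -0.2722 to -0.09062, and that on Mafg from -0.00496 to 0.05083 in EWAT and from -0.004954 to 0.02475 in RPWAT.

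Replicate numbers did not pair the arrays: of 338 same-numbered pairs, 92 had deviations that correlated above 0.1, and in 0 of 72 comparisons did all pairs. With the replicate block, Maff was called in 52, Mafk in 12, Mafg in 3 and Maf in 2 of 72 comparisons.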
